A study of Rattus norvegicus with 6 samples.

Results

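The miR-873 hairpin and its neighbour miR-876 were followed as 3 of the 728 mature microRNAs (miRNAs) counted in the series, namely the 2 arms rno-miR-873-3p and rno-miR-873-5p and the single entry rno-miR-876, called miR-873-3p, miR-873-5p and miR-876 below. The locus was chosen by the high share of exosome counts that miR-873-3p held, so the difference of that arm between the groups is given as a description without a test. The other arm and the neighbouring hairpin were added by name and position, to ask whether they follow miR-873-3p.

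The material was primary heart fibroblasts from Wistar rat pups on postnatal days 1 to 2, and exosomes, the small vesicles that cells shed, pelleted from their culture medium by ultracentrifugation. The cells carried no labelled genetic change or drug treatment; they were expanded in 10% serum, and vesicles were gathered over 48 h in medium with 1% vesicle-depleted serum. There were 3 exosome libraries (1, 2 and 1 whose column carried no number, called unnumbered here) and 3 fibroblast libraries (1, 2 and 4). The labels do not say that libraries came from separate cultures, so the p-values reflect only how much these libraries varied, and that variation may be technical.

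A miRNA is cut from a hairpin in a longer transcript. The cut leaves a short duplex, of which 1 strand usually enters an Argonaute protein and guides it to messenger RNAs through its seed (bases 2 to 8), while the other strand is mostly degraded. The strands are named 5p and 3p after their side of the hairpin, and both are made in equal numbers from each precursor. In mouse heart muscle cells miR-873 has been described as a repressor of Ripk1 and Ripk3, kinases of necrotic cell death.

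The sequences below are shown because the results turn on the arms of 1 hairpin. They are RefSeq sequences on build GRCr8, with seeds in capitals for the mature arms.
miR-873-3p: gAGACUGAcaaguucccggga
miR-873-5p: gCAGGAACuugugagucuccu

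The precursor of both arms lies at chr5:56153104-56153180 on the minus strand, where the 3p arm covers chr5:56153114-56153134 and the 5p arm chr5:56153150-56153170. The miR-876 precursor lies at chr5:56133376-56133454 on the same strand. In the hairpins below, capitals mark the mature arms of miR-873.
Mir873 hairpin: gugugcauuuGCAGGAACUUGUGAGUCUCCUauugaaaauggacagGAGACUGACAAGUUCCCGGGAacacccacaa
Mir876 hairpin: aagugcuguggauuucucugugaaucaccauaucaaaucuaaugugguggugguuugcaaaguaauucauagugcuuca

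The hairpins are 19649 bases apart with 0 other RefSeq hairpins between them, and both lie within the spans of Lingo2 and of a long non-coding RNA gene, LOC134478958, on that strand. Lingo2 encodes a leucine-rich repeat membrane protein known from neurons. Whether the hairpins are exonic or intronic was not analysed here. The 5p arm holds a run of 9 bases, GGAACUUGU, that is perfectly complementary to the 3p arm. The last bases of miR-873-3p, positions 14 to 21 from its 5′ end, read UCCCGGGA and equal their own reverse complement, which holds for a run as long or longer in 5.95% of the 655 listed entries with a RefSeq sequence. None of the other 692 mature names in RefSeq's table shared a seed with miR-873-3p or with miR-873-5p.

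Total miRNA counts were 113129 to 120224 in exosome libraries and 2439559 to 12508651 in fibroblast libraries, a span of 111-fold. Depth therefore moves with the groups. Reads outside the listed miRNAs made up 77.2% to 84.4% of the reads in exosome libraries and 63.1% to 82.4% in fibroblast libraries. A count of 0 allows a level of up to 24.95 to 26.5 CPM (counts scaled to 1000000 per library) in exosomes and 0.240 to 1.23 CPM in fibroblasts, taken as 3 counts of the total. These limits and the intervals below cover counting error only, since PCR copies are not independent molecules. Of the summed counts, 9 listed fibroblast miRNAs held 0.184% to 1.37% in exosome and 52.0% to 53.2% in fibroblast libraries. A list of 6 cardiomyocyte miRNAs held 0.00252% to 0.0116% and 0.00791% to 0.0172%, 7 blood miRNAs 0.0252% to 0.0283% and 0.0110% to 0.0404%, and 3 liver and serum miRNAs 0.0124% to 0.0233% and 0.137% to 0.149%. The 2 endothelial entries, both from miR-126a, held 0.0840% to 0.0966% in exosomes and 0.0100% to 0.0152% in fibroblasts. In the reads behind the authors' normalized table they held 0.00622% to 0.0185% in exosomes and 0.00885% to 0.0143% in fibroblasts, which overlapped. Shares of exosome counts depend on whether miR-873-3p is in the total. Without it, exosome against fibroblast shares were 1.22% to 13.8% against 52.5% to 54.5% for the fibroblast list and 0.639% to 0.973% against 0.0101% to 0.0156% for the endothelial entries. They were 0.0254% to 0.0771% against 0.00810% to 0.0172% for the cardiomyocyte list, 0.187% to 0.254% against 0.0113% to 0.0405% for the blood list, and 0.0976% to 0.154% against 0.139% to 0.149% for the liver and serum list. On that total the cardiomyocyte and blood lists lay higher in every exosome library than in any fibroblast library, and the liver and serum list overlapped. The exosome libraries held only 11825 to 18164 counts on that total. In the unnumbered exosome library the whole cardiomyocyte list had 3 counts, the floor given above. A rise on that total was common, so it does not single out these lists. Scaled to it, edgeR called 378 of 696 tested miRNAs higher and 36 lower in exosomes. The middle log2 fold change, exosome over fibroblast, was 2.37 there. No entry of these lists was at 0 in all libraries of a group. Their part in the results below was not tested.

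miR-873-3p was the most abundant miRNA in every exosome library. It had 102060, 98791 and 107169 raw counts in exosome libraries 1, 2 and unnumbered, against 80123, 48963 and 57905 in fibroblast libraries 1, 2 and 4. Raw counts thus lay higher in every exosome library than in any fibroblast library, although the fibroblast libraries were the deeper ones. Its share of the miRNA counts was 84.9% (95% Clopper-Pearson interval 84.7 to 85.1), 87.3% (87.1 to 87.5) and 90.1% (89.9 to 90.2) in the exosome libraries, against 1.26% (1.25 to 1.27), 0.391% (0.388 to 0.395) and 2.37% (2.35 to 2.39) in the fibroblast libraries. Levels are relative within a library, so a change in the number of vesicles or cells and one in RNA per vesicle or cell cannot be told apart. The groups did not overlap, which on the CPM scale, in the direction of higher exosome levels, was seen for 6.02% of tested miRNAs. In fibroblasts it still ranked 16th, 27th and 7th, and its share there was lowest in the deepest library and highest in the shallowest. The next entry in exosomes, miR-3552, averaged 0.811% ± 0.0344 (SD, n = 3) of exosome counts, while the leading fibroblast miRNA, miR-143-3p of mesenchymal and smooth muscle cells, averaged 25.1% ± 2.30 (SD, n = 3) of fibroblast counts.

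Set against all reads, including those outside the listed miRNAs, miR-873-3p made up 13.4%, 18.7% and 20.6% of the exosome libraries and 0.464%, 0.0690% and 0.809% of the fibroblast libraries. The groups did not overlap on this scale, which describes the arm that chose the locus and is no added support. The share of all miRNAs that did not overlap on this scale was not computed.

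The other arm had few exosome counts, as did most miRNAs there, and its change was not called. The median count of all listed miRNAs was 8, 7 and 3 in exosome libraries 1, 2 and unnumbered. miR-873-5p ranked 455th, 445th and 286th in these libraries, against 620th, 464th and 588th in fibroblast libraries 1, 2 and 4. miR-873-5p had 5, 4 and 4 raw counts in the exosome libraries (95% Poisson interval 1.62 to 11.7 for the count of 5), against 78, 972 and 20 in the fibroblast libraries. Its CPM levels came to 41.6, 35.4 and 33.6 for the exosome libraries, against 12.2, 77.7 and 8.20 for the fibroblast libraries. The exosome levels were close to each other, near the 3-count floor of those libraries, and fell between the fibroblast levels: fibroblast library 2 was higher, and libraries 1 and 4 were lower. Across all 698 miRNAs that passed the filter on low counts, miR-873-5p was fitted at 0.98 on the log2 fold scale (SE 0.78, interval -0.55 to 2.52) and was not called (adjusted p = 0.38, Benjamini-Hochberg, from the quasi-likelihood test of edgeR). In that test 11.3% of miRNAs were higher and 18.6% were lower in exosomes. All 3 entries passed the filter, which works on CPM, and miR-873-5p could do so on its few exosome reads.

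miR-876, the neighbouring hairpin, went the other way from miR-873-3p in the main edgeR fit, though not under every scaling. It had 3, 7 and 8 raw counts in the exosome libraries, against 2941, 3350 and 268 in the fibroblast libraries. These are 24.95, 61.9 and 67.2 CPM in exosomes and 461, 268 and 110 CPM in fibroblasts. By CPM every exosome library was lower than every fibroblast library, as was the case for 24.1% of the tested miRNAs; after TMM scaling (edgeR's trimmed mean of M values, which sets library scale by the bulk of the miRNAs) the groups overlapped, with 156 in the unnumbered exosome library against 135 in fibroblast library 2. The fitted level was 3.85-fold lower in exosomes (log2 fold change -1.95, SE 0.70, edgeR adjusted p = 0.020), where the median tested miRNA stood at -0.15. The call was lost with DESeq2 (log2 -1.85, DESeq2 adjusted p = 0.085), without exosome library 1 (edgeR adjusted p = 0.23), without exosome library 2 (0.10) and without fibroblast library 1 (0.21), and the adjusted p spanned 0.00026 to 0.51 over all settings.

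**Figure D1:**
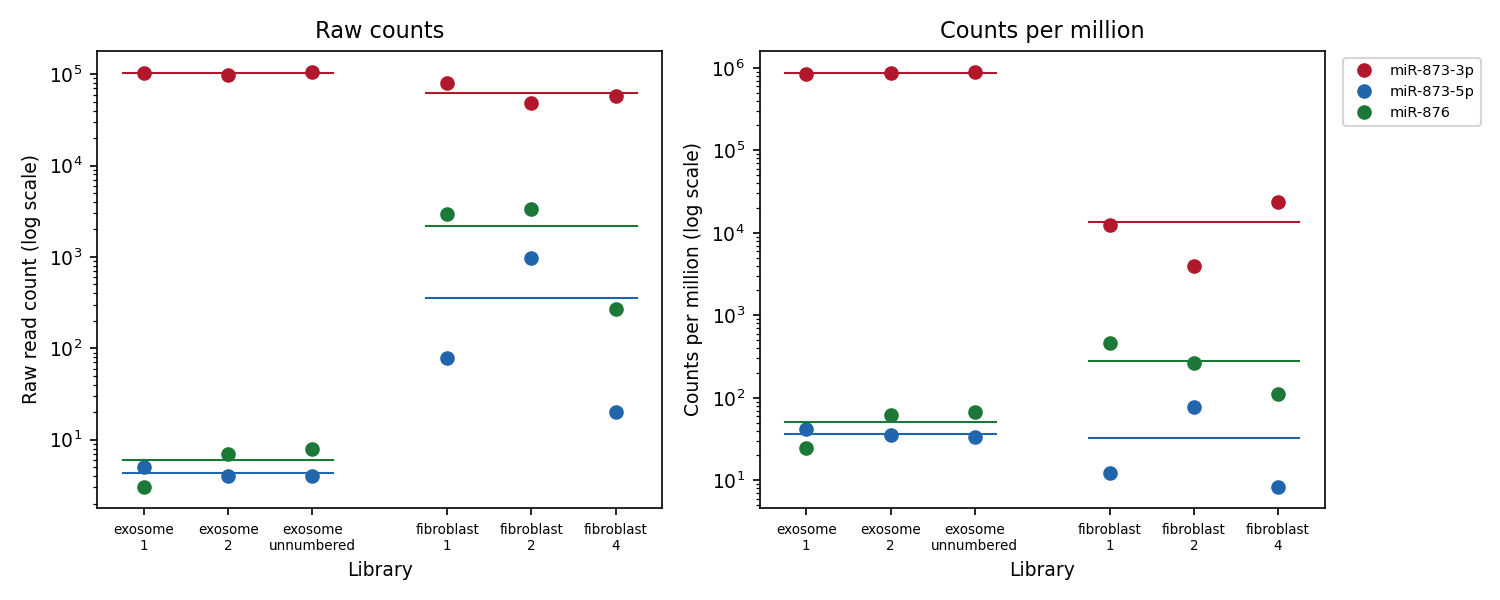
Raw read counts (left) and CPM (right) of miR-873-3p, miR-873-5p and miR-876, both on log axes, in the 3 exosome libraries and the 3 fibroblast libraries. Points are libraries and lines are group means. miR-873-3p lies between 48963 and 107169 raw counts in all 6 libraries, while the other 2 entries stay under 10 counts in exosomes. The median listed miRNA has 3 to 8 counts in the exosome libraries.

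In the same fit miR-873-3p stood 77.8-fold higher in exosomes (6.28 on the log2 scale, SE 2.99), a description only. The direction of miR-873-3p was the same under every setting run, and the size depended on the scaling between libraries. With TMM 79 miRNAs were higher and 130 lower. With total counts these were 43 and 121, with library sizes that count all reads 35 and 195, and with total counts other than miR-873-3p 378 and 36; the last setting was chosen after seeing the data. The median of all log2 fold changes shifted with them, from -0.15 to -0.57, -0.96 and 2.37. miR-873-5p then took log2 fold changes of 0.16, 0.03 and 3.16, and only the last passed the test (edgeR adjusted p = 0.013, and 0.013 to 0.99 over all settings). miR-876 took values of -2.45, -3.01 and 0.61. The last is a change of direction and did not pass the test (edgeR adjusted p = 0.51). Its levels on that scale were 165, 488 and 677 when scaled to 1000000 in exosomes, against 467, 269 and 113 in fibroblasts, and these overlapped. Relative to the median of all tested miRNAs, miR-876 lay at -1.80 with TMM and at -1.88, -2.05 and -1.76 with these scalings. miR-873-5p lay at 1.14 with TMM and at 0.74, 0.99 and 0.79, and miR-873-3p at 6.43 with TMM and at 6.60, 6.25 and 6.67. A change of scaling shifts all miRNAs by nearly the same amount, and subtracting the median takes that shift out. The closeness of these values across scalings is thus largely fixed in advance and is no separate support.

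**Figure D2:**
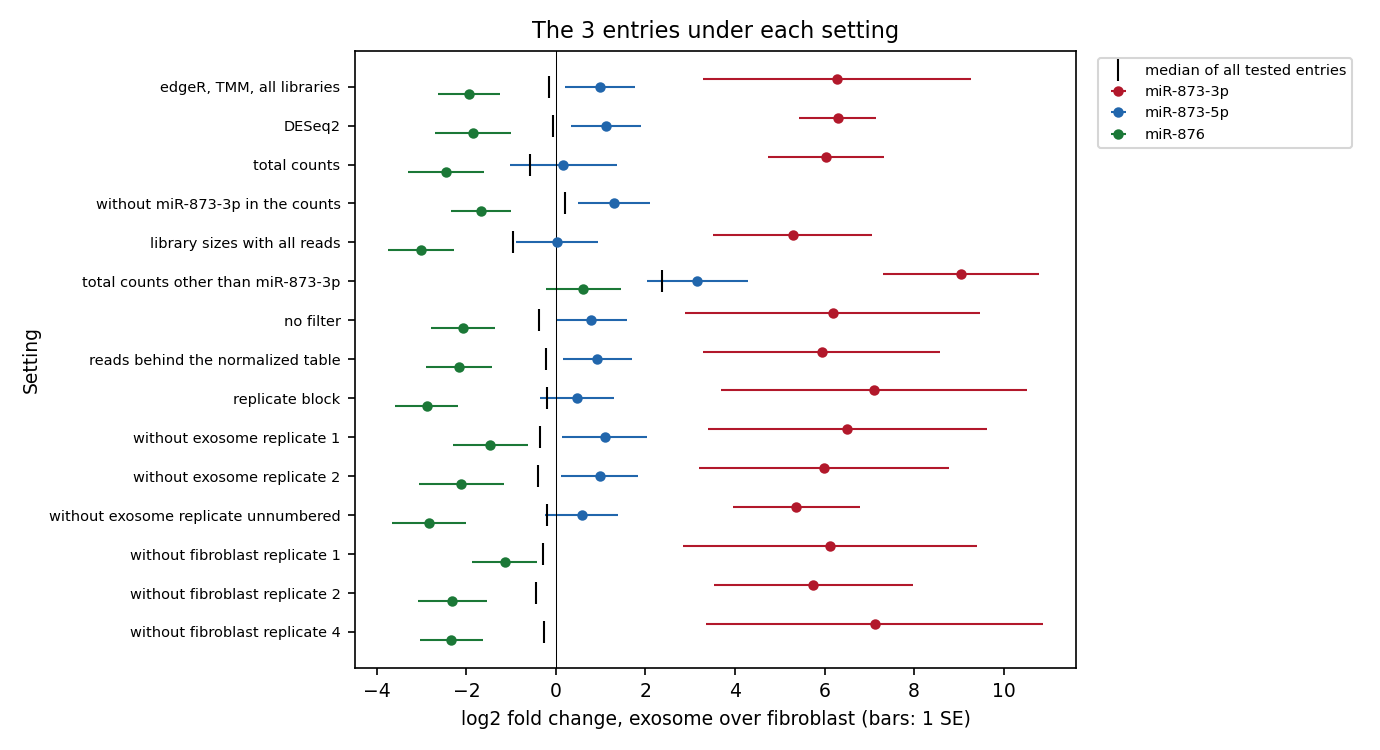
Fitted log2 fold change of the 3 entries, exosome over fibroblast, under each processing setting (vertical axis), with bars of 1 SE and a black mark at the median of all tested miRNAs. The 3 entries keep their order in every setting that gives all 3, with miR-873-3p at 5.29 or more. Between scalings that order is largely fixed, since a scaling shifts all entries by nearly the same amount. miR-873-5p is missing where it failed the count filter, and miR-873-3p where it was left out.

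Ratios within a library do not depend on the scaling between libraries. The count of miR-873-3p over that of miR-873-5p was 20412, 24698 and 26792 in the exosome libraries, against 1027, 50.4 and 2895 in the fibroblast libraries. The arms were therefore more unequal in every exosome library than in any fibroblast library, and the fibroblast ratios themselves spanned a wide range, lowest in library 2. Arm ratios of the groups did not overlap in 41.1% of 265 hairpins with both arms listed. The ratio for miR-873 sets the arm that chose the locus over 4 to 5 exosome counts of miR-873-5p per library, so it is a description. Of the counts of the hairpin, miR-873-5p made up 0.00490% (95% Clopper-Pearson interval 0.00159 to 0.0114), 0.00405% (0.00110 to 0.0104) and 0.00373% (0.00102 to 0.00956) in exosomes and 0.0973% (0.0769 to 0.121), 1.95% (1.83 to 2.07) and 0.0345% (0.0211 to 0.0533) in fibroblasts. The mean difference in the log2 ratio of 3p over 5p was 5.34, as a description. miR-873-3p outnumbered miR-876 by 34020, 14113 and 13396 to 1 in exosomes and by 27.2, 14.6 and 216 to 1 in fibroblasts.

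The ratio of miR-876 to miR-873-5p leaves miR-873-3p out. It was 0.6, 1.75 and 2.0 in the exosome libraries, against 37.7, 3.45 and 13.4 in the fibroblast libraries. The groups did not overlap, on 13 exosome counts of miR-873-5p and 18 of miR-876 in all. Separation of a ratio was common in these libraries, since the ratio between the arms of a hairpin did not overlap in 41.1% of 265 hairpins. The share among other pairs of miRNAs was not computed. The log2 ratio averaged 0.33 ± 0.86 in exosomes and 3.57 ± 1.73 in fibroblasts (SD, n = 3 each), a difference of -3.24 (p = 0.1 by an exact permutation test, two-sided, which cannot go lower with 3 libraries a group).

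Among 69 hairpins with both arms listed and at least 100 exosome counts, miR-873 had the second-lowest 5p share in exosomes with counts pooled over libraries, at 0.00422% of 308033 counts. The hairpin below it was miR-148b, with 0 of 121 counts on the 5p arm, and the one above was miR-93 at 1.46% of 2199. In fibroblasts, with counts pooled over the 3 libraries, miR-873 had the fourth-lowest 5p share of 265 hairpins, at 0.569% of 188061 counts, where miR-148b stood at 0.322% and miR-93 at 77.5%. Library 2 gave 972 of the 1070 fibroblast 5p counts, and without it the pooled share was 0.0709% of 138126 counts, the third-lowest. A strong excess of the 3p arm was thus shared by both groups for miR-873, while for miR-93 the arms were reversed between them. By the size of the difference in log2 arm ratio between exosomes and fibroblasts, miR-873 ranked 11th of the 69 and miR-93 was 1st, against a median size of 2.41. In 55.1% of these hairpins the arm ratios of the groups did not overlap. These ranks describe the locus and were not tested. The exosome share is taken over counts that include miR-873-3p, whose high exosome share chose the locus. Its low rank there is thus largely fixed in advance. The other hairpins had at most 2643 exosome counts, too few to show a share that low other than 0.

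**Figure D3:**
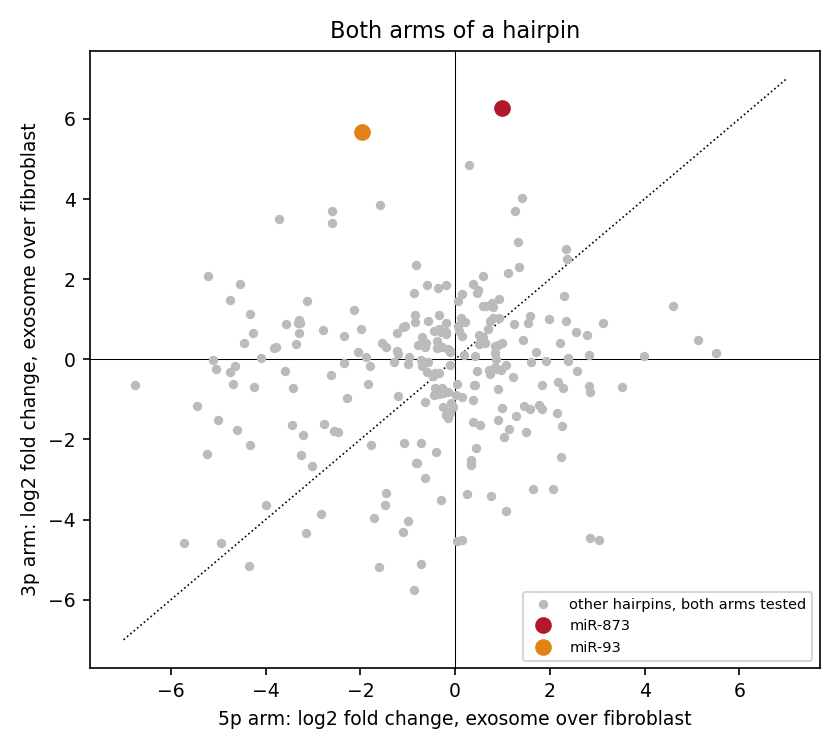
Fitted log2 fold change of the 3p arm (vertical) against that of the 5p arm (horizontal), exosome over fibroblast, for 247 hairpins with both arms tested; 1 hairpin with an arm at 0 in all exosome libraries is left out, and the dotted line marks equal change. miR-873 lies at 0.98 for its 5p arm and 6.28 for its 3p arm, and miR-93 at -1.97 and 5.68; arms of opposite sign occur in 115 of the 247.

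The raw count of miR-873-3p varied little for libraries of such different depth. Its highest count was 2.19 times its lowest, while library totals spanned 111-fold. Of 116 other miRNAs with at least 10 counts in every library, 0 had a smaller ratio of highest to lowest count, and their median ratio was 335. The locus was chosen by a high share in the exosome libraries, which are the shallow ones. An even raw count follows in part from that choice, so this rank is a description. Likeness to miR-873-3p was measured as the SD over the 6 libraries of the log2 ratio of a miRNA's count to that of miR-873-3p, and no function or control is implied by it. The 5 most alike had SDs of 0.82 to 1.64, where the median of the 116 was 3.83 and the next miRNA had 1.75.

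Their sequences, seeds in capitals, are shown beside that of miR-873-3p because these 5 ranked as most like it by that measure.
miR-873-3p: gAGACUGAcaaguucccggga
miR-708-5p: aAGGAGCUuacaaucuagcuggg
miR-93-3p: aCUGCUGAgcuagcacuucccga
miR-126a-3p: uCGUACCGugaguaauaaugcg
miR-3552: aGGCUGCAggcccacuucccu
miR-379-5p: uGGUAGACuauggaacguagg

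miR-708-5p, which shares its seed with miR-28-5p, had 1005, 660 and 944 counts in the exosome libraries, against 1176, 1672 and 761 in the fibroblast libraries. miR-93-3p, the arm opposite miR-93-5p, had 721, 684 and 762 in exosomes against 779, 1823 and 543 in fibroblasts. The counts of both were of similar size in the groups and overlapped. miR-126a-3p, known from endothelium, had 113, 91 and 98 counts in exosomes against 206, 366 and 130 in fibroblasts. The reads behind the authors' normalized table held 11, 3 and 5 of these exosome counts and 130, 323 and 71 in fibroblasts, so its likeness rests on the raw table. miR-3552 had 1010, 928 and 920 counts in exosomes and 1095, 4417 and 739 in fibroblasts. miR-379-5p, of the imprinted Dlk1-Dio3 cluster, had 58, 61 and 62 in exosomes and 107, 503 and 38 in fibroblasts. Fibroblast library 2, the deepest, had the highest count of all 5.

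Per 1000 counts of miR-873-3p, miR-93-3p stood at 7.03 ± 0.0972 in exosomes and 18.8 ± 15.98 in fibroblasts, and miR-708-5p at 8.45 ± 1.61 and 20.7 ± 11.7 (SD, n = 3 each). Among the exosome libraries these ratios varied by a small part of their size, while in fibroblasts they spread widely. The opposite arms of both had far fewer exosome counts. miR-93-5p was counted 12, 9 and 11 times in exosomes, against 3637, 6343 and 883 times in fibroblasts, and miR-708-3p 13, 12 and 9 against 836, 3407 and 41. Fitted log2 fold changes, as descriptions, were 5.68 for miR-93-3p and -1.97 for miR-93-5p, and 5.51 for miR-708-5p and 0.16 for miR-708-3p. For miR-126a they were 4.85 on the 3p and 0.30 on the 5p arm, and for miR-379 they were 5.13 on the 5p and 0.47 on the 3p arm. The higher arm of each hairpin was picked for counts that follow miR-873-3p over these libraries, so its high value is largely built in. Its excess over the opposite arm follows in part from that choice.

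The longest run shared with miR-873-3p was UUCCCG in miR-93-3p, a run of 6 bases; 5.20% of the 654 other listed sequences share a run as long or longer with miR-873-3p. miR-3552 shared UUCCC and miR-379-5p shared AGACU, both runs of 5 bases, a length that 22.9% of the sequences reach. The runs of miR-708-5p and miR-126a-3p were of 4 and 3 bases, lengths reached by 66.5% and 99.5%. Matches were searched on the given strand only and describe letters alone.

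**Figure D4:**
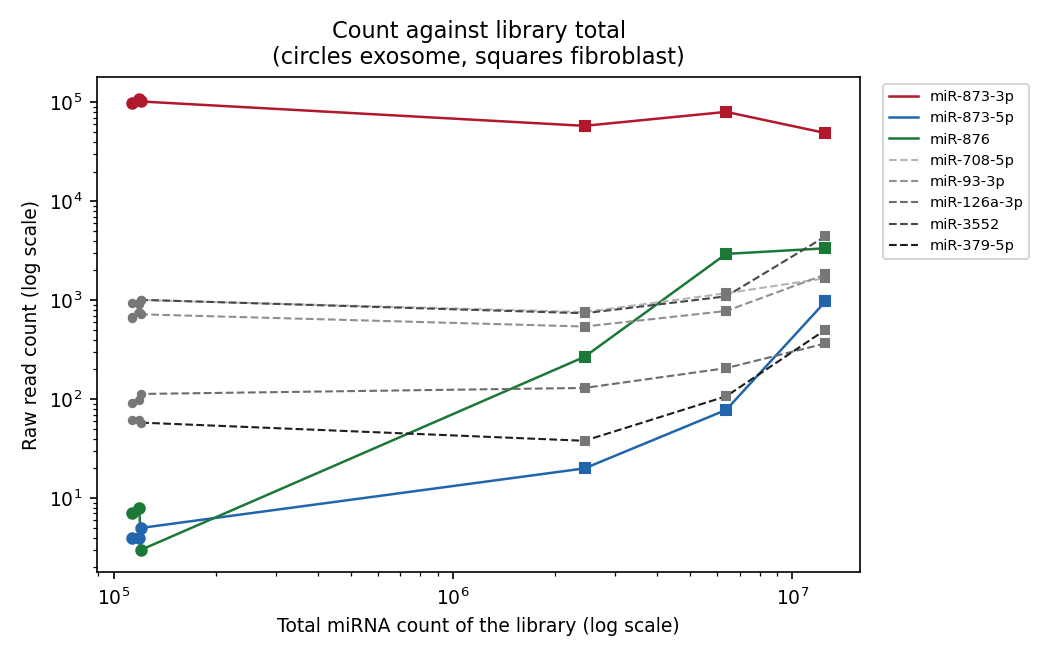
Raw count against the total miRNA count of the library, both on log axes, for the 3 entries (solid lines) and the 5 miRNAs most like miR-873-3p (dashed); circles are exosome and squares fibroblast libraries. The line of miR-873-3p is nearly flat, between 48963 and 107169, while miR-876 and miR-873-5p reach 3350 and 972 counts in the deepest library.

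The host region is known from neurons, so 15 miRNAs known from neural tissue were set beside the locus. In exosomes 3 of these were higher and 0 were lower, against a background of 11.3% higher and 18.6% lower among all tested miRNAs, with a median log2 fold change of 0.70 against -0.15. They held 0.242% to 0.546% of exosome and 0.111% to 0.252% of fibroblast counts, which overlapped, and none was at 0 in a group. Of the counts other than miR-873-3p they held 2.44% to 3.62% in exosomes and 0.114% to 0.253% in fibroblasts, which did not overlap. The background above is that of the TMM fit. Scaled to counts other than miR-873-3p, edgeR called 378 miRNAs higher and 36 lower, and the middle log2 fold change was 2.37. The endothelial, blood and cardiomyocyte lists also lay higher there without overlap. The liver and serum list overlapped and the fibroblast list lay lower. The separation is thus not particular to the neural list.

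The authors' deposited table gave fibroblast over exosome values. Its log2 fold change was -6.30 for miR-873-3p, -1.30 for miR-873-5p and 1.75 for miR-876, so the directions were those of the fit above. Adjusted p-values in the authors' deposited table were 0.741, 1 and 0.823 in this order. None of the 3 entries passed 0.05 there.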

How the data were processed

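Members and lists were chosen with earlier results of these data known. Raw read counts per mature miRNA were deposited by the authors and went into every main test. Their deposited normalized table holds a signal, each value a read count divided by a library's size factor: 100% of its values came within 0.05 of whole reads. These reads are not the raw counts of every miRNA. Over the listed miRNAs they summed to 99.3% to 99.8% of the raw counts by library, but for miR-126a-3p in exosomes they were 11, 3 and 5 against 113, 91 and 98. The authors' deposited comparison gives mean signal, a fold ratio, its log2 value and p-values, per the file headers. The submitters' processing notes list CASAVA 1.8.2, cutadapt 1.2.1, DESeq and build rn5; the aligner, the way reads were counted and the miRNA release were not given in the sources used here. The row named rest, whose share the report gives, was used only where stated.

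The test was edgeR 4.0.16's quasi-likelihood test in R 4.3.3 (TMM, filterByExpr with minimum count 10 and minimum total 15, two-sided, Benjamini-Hochberg, threshold 0.05; 30 of 728 entries removed). Standard errors are the log2 fold change over the square root of F, and intervals span 1.96 SE. DESeq2 1.42.0 was an alternative. Log2 ratios added 0.5 counts. The edgeR step was tested on simulated data, which had as many raised as lowered entries and the same starting proportions in both groups. Their variation between libraries was below the fitted coefficient of variation of 54.3%. That trial therefore does not cover the noise of these libraries or a miRNA that holds most counts of 1 group. Libraries of a group differed by more than sampling noise, with chi-square over degrees of freedom from 3.23 to 621.

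Named miRNAs were the 3 entries, the 5 most like miR-873-3p, the second in exosomes, the first in fibroblasts and the hairpins next to miR-873 by 5p share; a search for shared seeds named no further miRNA. The sequence comparisons and the shares without miR-873-3p were added after seeing the data. By name, 2 of the 3 entries matched a mature sequence in RefSeq's table.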

Additional observations from a re-analysis of the deposited data

How the results depend on the processing

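Settings were other scalings, no filter, DESeq2, the reads behind the normalized table, a replicate block and leaving out each library. miR-876 had a log2 fold change of -1.95 at first; it was not called with DESeq2 (-1.85), and turned to 0.61 with total counts other than miR-873-3p, a setting chosen after seeing the data. Leaving out each library gave it -2.84 to -1.14, not called in 3 of 6. miR-873-5p was called only with total counts other than miR-873-3p (3.16); without each fibroblast library in turn it failed the count filter, which then left 359 to 414 miRNAs, and without each exosome library it lay at 0.58 to 1.09. miR-873-3p, with no test, moved to 5.29 with library sizes that count all reads and to 9.04 with total counts other than itself, against 6.28, and lay at 5.37 to 7.12 with a library left out; it has no value where it was left out of the counts. Its exosome share moved from 87.4% to 17.5% of all reads, and lay at 86.1% to 88.7% with a library left out. Entries higher were 43 with total counts, 35 with all reads and 378 with total counts other than miR-873-3p, and lower 36 in the last; leaving out each library gave 46 to 78 higher and 86 to 139 lower. The 5p share of the hairpin in exosomes lay at 0.00389% to 0.00447%, and the difference in log2 ratio of miR-876 to miR-873-5p at -4.14 to -2.41. The 5 miRNAs most like miR-873-3p were picked for counts that follow its own over these libraries. A positive log2 fold change is thus largely built in. All 5 kept that sign, which is no separate support, and miR-126a-3p spanned 1.17 to 7.48.

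Numbers 1 and 2 occur in both groups, but nothing says that they pair libraries, and deviations of same-numbered libraries correlated at -0.10 and 0.17. With the replicate block, miR-876 had a log2 fold change of -2.89, miR-873-5p of 0.47 and miR-873-3p of 7.11, the ratio difference over these numbers was -3.46, and 96 were higher and 138 lower. Neither miR-873-5p nor miR-876 changed its call under the block. With 3 to 8 exosome counts of miR-876 and miR-873-5p per library, depth limits their exosome levels. No values came from same-seed miRNAs, since no other mature name in RefSeq's table shared a seed with an arm of miR-873. Listed entries without a RefSeq mature sequence, miR-876 among them, were not compared.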
